A study of Mus musculus with 6 samples.

Results

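MHC class I presentation genes encode the molecules that show peptides from inside a cell to CD8 T cells, and the machinery that makes, delivers and loads those peptides. The 10 genes described here were taken by symbol from the deposited count tables, 10 of 55401 listed genes, and each symbol matched 1 identifier. They are the heavy chain genes H2-K1, H2-D1, H2-T23 and H2-Q4, the light chain gene B2m, the transporter genes Tap1 and Tap2, the loading chaperone gene Tapbp, the peptidase gene Erap1 and the regulator gene Nlrc5. The series compares splenic germinal centre B cells of WT C57BL/6 mice in a DN and a DP subset, with 3 polyadenylated RNA libraries each (n = 3 per group throughout). All mice received SRBC, sheep red blood cells, into the peritoneal cavity, were challenged again on day 5 and were killed on day 12. The labels give neither the ages of the mice nor the markers behind the names DN and DP, and all libraries carry the same batch label. By the design text, 3 mice gave both subsets, but the labels do not say which libraries share an animal. The p-values therefore reflect the spread among the 6 libraries alone, part of which could be technical.

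In the class I pathway, the proteasome cuts cytosolic proteins into peptides, and the TAP1-TAP2 transporter carries them into the endoplasmic reticulum. There ERAP1 trims them, and tapasin, the product of Tapbp, holds an empty heavy chain with its light chain beta-2 microglobulin next to the transporter until a fitting peptide is bound. H2-K1 and H2-D1 encode the classical chains of this mouse strain, H2-T23 encodes the heavy chain of Qa-1, a ligand of natural killer cell receptors, and H2-Q4 encodes a chain of the Q region. Interferon raises most of these genes, and NLRC5 is the transactivator that binds class I promoters together with the RFX, CREB and NF-Y factors.

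Counts assigned to genes ranged from 8904415 to 11897360 in DN libraries and from 17509384 to 20538024 in DP libraries, 1.88 times deeper on average. The scarcest member value was 399 counts in a library, so that all 10 members passed the filter on low counts and none was near the floor of 3 counts. All 10 germinal centre B cell markers examined were measured, with a summed level of 3200 to 3236 CPM (counts scaled to a common library total) in DN and 1636 to 1670 CPM in DP. Of these markers 9 were lower in DP. Markers of other cells also differed between the groups. Macrophage markers summed to 25.4 to 28.2 CPM in DN and 12.4 to 14.1 CPM in DP, with 6 of 9 lower and 1 higher. Erythroid markers summed to 62.0 to 72.5 and 15.8 to 18.2 CPM, with 6 of 7 lower. Dendritic cell markers summed to 24.7 to 25.2 and 41.5 to 43.6 CPM, nearly all of it Flt3, while Xcr1 was at 0 in every library and Zbtb46 had 0 counts in DN and 89 in DP. Plasma cell markers summed to 387 to 398 and 293 to 306 CPM, and naive B cell markers to 90.9 to 98.7 and 94.8 to 101 CPM. Neutrophil markers summed to at most 1.54 CPM, with Ly6g at 0, and stromal markers to at most 4.62 CPM. T cell markers reached at most 4.09 CPM and NK cell markers at most 1.03 CPM, with Klrb1c at 0. The part of these other cells in the members' values was not tested, and in bulk RNA fewer cells of a type and less RNA per cell cannot be told apart.

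The members did not move as a block. Of 10 tested, 8 differed between the subsets at an adjusted p under 0.05 (edgeR), a share close to the 75.9% of all 11296 tested genes that did so. Tapbp, Erap1 and H2-K1 were higher in DP, and H2-Q4, Tap1, Tap2, B2m and Nlrc5 were lower, while H2-D1 and H2-T23 did not pass. Over all tested genes, 38.3% were called higher and 37.6% lower. For these 8 genes no DP library fell inside the DN range, which held for 77% of all tested genes (39% with DP higher and 38% with DP lower). Changes were small. None of the members reached a 2-fold difference, which 25.1% of tested genes did, and their median absolute log2 change was 0.41 against 0.53 over all tested genes. The members' median log2 change was -0.14, against 0.01 over all tested genes. When a change of more than 1.5-fold was tested for, H2-Q4 alone of the members passed, against 34.3% of all tested genes. Scaling by library totals alone put the median log2 change of all tested genes at -0.19, and took the share of calls that were higher from 50.5% to 38.0%. Under that scaling H2-K1 was no longer called, while H2-D1 and H2-T23 were called lower.

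**Figure D1:**
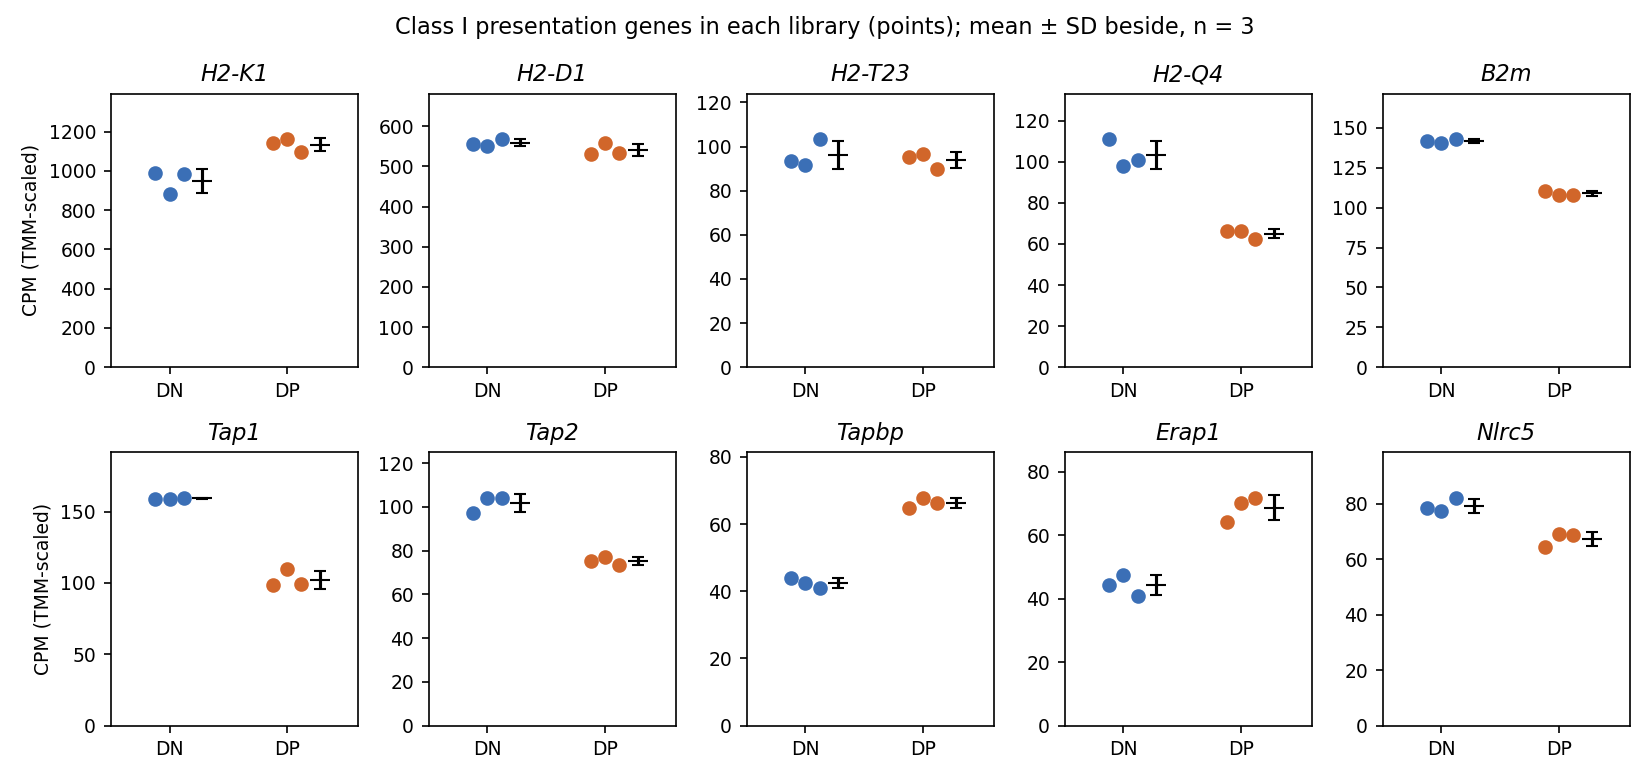
Normalised level of each of the 10 genes in the 6 libraries, in CPM scaled by TMM factors, with each vertical axis starting at 0. Points are single libraries and the bars beside them give mean ± SD (n = 3); the groups are apart for 8 genes and overlap for H2-D1 and H2-T23.

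Of the classical heavy chain genes, H2-K1 rose slightly and H2-D1 did not pass. H2-K1 was measured at 988, 881 and 983 CPM in the DN libraries and at 1140.3, 1162 and 1099 CPM in the DP libraries. Every DP library was above every DN library, by a margin much smaller than the level itself. The rise was 1.19-fold (0.25 ± 0.04 on the log2 scale, edgeR adjusted p = 2.26e-08), but with library totals alone it was 0.06 with an adjusted p of 0.143. H2-D1 stood at 556, 551 and 568 CPM in DN and at 532, 558 and 533 CPM in DP. The highest DP library lay within the DN range. Its log2 change was -0.05 with a 95% interval of -0.12 to 0.03 (adjusted p = 0.240), and it was called lower with library totals alone (-0.24, adjusted p = 8.90e-09), with upper-quartile factors (-0.08, adjusted p = 0.0403) and with the stricter filter (-0.08, adjusted p = 0.0356).

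The non-classical heavy chain genes differed from each other. H2-T23 stood at 93.5, 91.4 and 103 CPM in DN and at 95.1, 96.7 and 89.8 CPM in DP, so that the groups overlapped. Its log2 change was -0.03 with a 95% interval of -0.13 to 0.07 (edgeR adjusted p = 0.562), and with library totals alone it was called lower (-0.23, adjusted p = 3.40e-05). H2-Q4 fell from 111, 98.0 and 101 CPM in DN to 66.3, 66.2 and 62.5 CPM in DP. No DP library came near the DN range. Its log2 change was -0.67 ± 0.05 (adjusted p = 1.07e-18), with a range of -0.87 to -0.60 over the alternatives tried. Of the words of 50 bases in its transcripts, 36.4% also occur, on either strand, in transcripts of other genes, so its counts are less certain than those of the other heavy chains. Gm11131 (15.3%) and H2-Q6 (9.68%) share most. Gm11131 overlaps H2-Q4 itself, so its part of the shared words and the exon overlap given next are not separate doubts. Exons of Gm11131 on the opposite strand cover 19.1% of its exon bases, and whether strand was used in counting is not stated. Gm11131 itself averaged 2.42 CPM in DN and 1.26 CPM in DP. The same share was 9.63% for H2-K1, 12.8% for H2-D1 and 14.5% for H2-T23. The longest coding transcripts of H2-K1 and H2-D1 were identical at 90.3% of 1475 aligned bases, and those of H2-K1 and H2-Q4 at 92.2% of 937.

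The share of each chain within the heavy chain counts does not depend on the scaling between libraries. H2-K1 made up 56.5%, 54.3% and 56.0% of the summed counts of the 4 heavy chain genes in the DN libraries and 62.2%, 61.7% and 61.6% in the DP libraries. H2-D1 went from 32.7% ± 1.14 to 29.5% ± 0.455 and H2-Q4 from 6.05% ± 0.295 to 3.55% ± 0.0632 (SD, n = 3). H2-T23 moved least in percentage points, from 5.62% ± 0.273 to 5.12% ± 0.0774. The groups did not overlap for any of the 4 shares. The 4 shares make up a whole, so a rise in the H2-K1 share lowers the others, and they are not separate results. In CPM the groups overlapped for H2-D1 and H2-T23. In counts per count of H2-D1, H2-K1 stood at 1.70 ± 0.0931 in DN and 2.10 ± 0.0435 in DP. Each share had an exact two-sided permutation p of 0.1, the smallest that 3 against 3 libraries can give, and 0.1 after adjustment over the 6 within-library measures tested.

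The promoters of the heavy chain genes are shown because H2-K1, which rose, and H2-Q4, which fell, carry nearly the same stretch upstream, as does H2-D1. Sequences are from RefSeq on the GRCm38.p6 build, written 5′ to 3′ on the strand of each gene, from 8 bases before the first to at most 8 after the last match upstream of the annotated start. H2-K1 has 2 listed windows, of which the one with the more downstream start is used. Windows ran from 250 bases before to 50 after the start and were available for 8 members, not for Tap2 and Nlrc5. Capitals mark matches on either strand to the NF-kB consensus, to an interferon regulatory factor (IRF) element spelled GAANNGAAA, to the core of the interferon-stimulated response element (ISRE), which is GAAA, any 2 bases and GAAA, to the core TGACG of the cyclic AMP response element (CRE) and to the CCAAT box. Overlapping NF-kB matches run together in the first 3 sequences, which come from chr17:34000334-34000466 (minus strand), chr17:35262915-35263053 (plus strand) and chr17:35379435-35379574 (plus strand). The others come from chr17:36032741-36032833 (minus strand) and, for B2m, chr2:122147540-122147646 (plus strand).
H2-K1: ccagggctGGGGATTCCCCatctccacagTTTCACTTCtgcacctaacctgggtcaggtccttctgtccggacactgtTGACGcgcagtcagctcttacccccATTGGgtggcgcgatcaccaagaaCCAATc
H2-D1: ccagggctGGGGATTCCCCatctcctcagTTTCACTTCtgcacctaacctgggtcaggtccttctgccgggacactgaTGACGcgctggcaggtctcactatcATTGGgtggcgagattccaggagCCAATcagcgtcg
H2-Q4: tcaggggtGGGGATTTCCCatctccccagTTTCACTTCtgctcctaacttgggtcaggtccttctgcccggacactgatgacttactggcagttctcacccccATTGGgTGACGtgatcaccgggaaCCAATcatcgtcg
H2-T23: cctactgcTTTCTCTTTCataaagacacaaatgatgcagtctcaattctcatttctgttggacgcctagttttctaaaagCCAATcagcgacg
B2m: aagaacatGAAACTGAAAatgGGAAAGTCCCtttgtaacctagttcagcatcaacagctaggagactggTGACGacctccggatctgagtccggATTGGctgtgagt

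In H2-K1 and H2-D1 the order of matches was the same, NF-kB, IRF, CRE core and a pair of CCAAT boxes in opposite orientation, and 90.0% of 191 aligned upstream bases were identical. H2-Q4 was identical to H2-K1 at 89.3% of 177 aligned bases, and its CRE core stood between the CCAAT boxes instead of before them, with a further CRE core after the start. The NF-kB consensus was matched in 4 of 8 member windows (H2-K1, H2-D1, H2-Q4 and B2m) and in 4.51% of 32851 windows in the table. IRF elements were found in H2-K1, H2-D1 and H2-Q4, and in 7.52% of all windows. The ISRE core was found in H2-T23, B2m and Erap1, where it spans the start, and in 3.44% of all windows. CRE cores occurred in 5 of 8 member windows and CCAAT boxes in 7 of 8, against 20.8% and 37.4% of all windows. Matches are descriptions of these letters only. H2-K1 and H2-Q4 held the same kinds of match, and whether any match bears on the change of a gene was not tested.

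**Figure D2:**
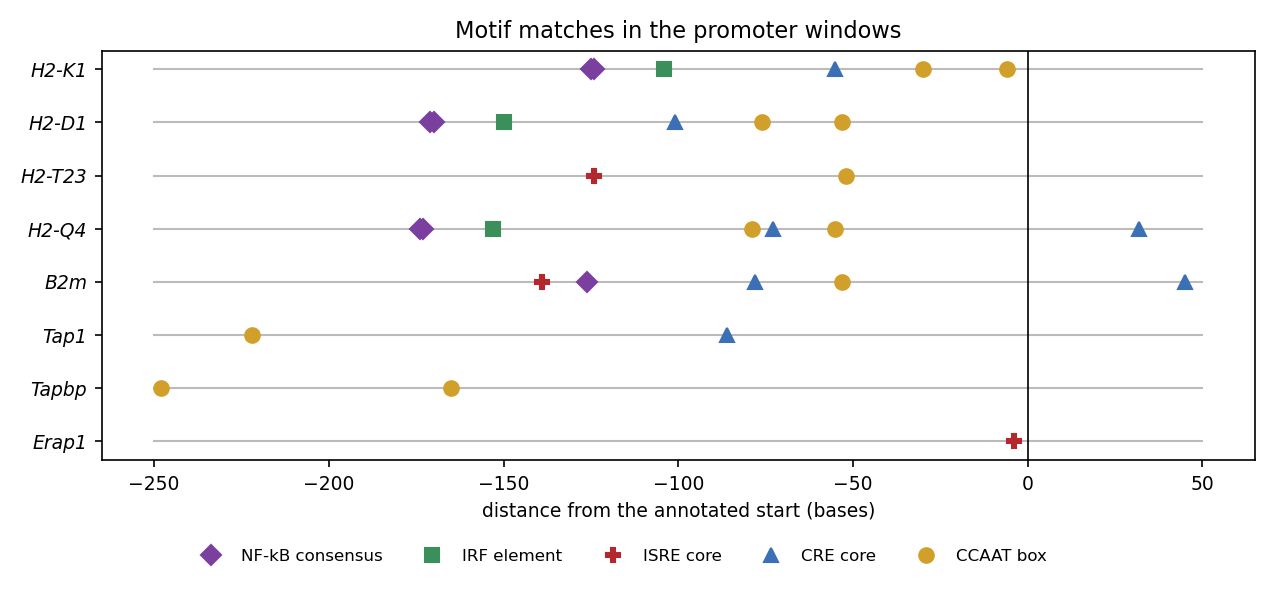
Positions of motif matches in the promoter windows of the 8 members with a listed window; the horizontal axis is the distance in bases of a match's first base from the annotated start, and each symbol is 1 match on either strand. H2-K1 and H2-D1 show matches in the same order, at different distances from their annotated starts, and in H2-Q4 the CRE core lies between the CCAAT boxes.

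B2m, the light chain gene shared by all class I molecules, fell. It was measured at 142, 140.3 and 143 CPM in DN and at 111, 108 and 108 CPM in DP. The libraries of each group lay within a few CPM of each other, and the groups were well apart (-0.38 ± 0.04 on the log2 scale, edgeR adjusted p = 5.33e-12). Counts of the 4 heavy chain genes per B2m count were 12.3, 11.6 and 12.3 in DN and 16.6, 17.5 and 16.5 in DP. This ratio was therefore 1.40 times higher in DP, with no overlap (exact two-sided permutation p = 0.1, the smallest possible). The 10 members took 0.243% ± 0.00777 of the counts in DN libraries and 0.217% ± 0.00645 in DP libraries (mean ± SD, n = 3, exact permutation p = 0.1). This last share is a value by library totals alone, a scaling under which the median log2 change of all tested genes was -0.19. It does not show that the members' summed level fell with TMM factors.

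Tap1 and Tap2, the subunits of the peptide transporter, both fell. Tap1 went from 159, 159 and 159.8 CPM in DN to 98.3, 109 and 99.2 CPM in DP. The DN libraries were nearly identical, and the nearest DP library lay far below them (-0.64 ± 0.04, edgeR adjusted p = 5.01e-20). Tap2 went from 97.1, 104 and 104 CPM to 75.4, 77.1 and 73.3 CPM (-0.43 ± 0.05, adjusted p = 3.54e-12). Both groups of Tap2 values were also apart. Exons of Gm15821 and Gm20496 on the opposite strand cover 18.5% of the Tap2 exon bases, and neither gene exceeded 0.472 CPM in any library. Tap1 counts per Tap2 count were 1.53 to 1.64 in DN and 1.30 to 1.42 in DP. By their RefSeq starts Tap1 lies 225 bases from Psmb9, an immunoproteasome subunit gene on the opposite strand, and Psmb9 fell as well, from 71.3 ± 4.22 to 53.8 ± 1.83 CPM (-0.40 ± 0.05, adjusted p = 2.07e-09). In the GENCODE annotation the model of Psmb9 reaches to 34187764, inside Tap1, and its exons cover 3.87% of the Tap1 exon bases. Most of the stretch between the RefSeq starts is shown because both genes fell. It lies at chr17:34187326-34187482 on the strand of Tap1, from 230 to 74 bases before its start, and the capitals mark a CCAAT box and a CRE core.
Tap1: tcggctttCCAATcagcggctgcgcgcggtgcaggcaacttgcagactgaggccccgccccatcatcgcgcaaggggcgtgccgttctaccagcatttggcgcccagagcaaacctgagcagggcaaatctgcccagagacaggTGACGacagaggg

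Tapbp and Erap1, which act after the transporter, rose. Tapbp went from 43.9, 42.5 and 41.0 CPM in DN to 64.7, 67.9 and 66.4 CPM in DP (0.64 ± 0.06, edgeR adjusted p = 1.12e-15). Erap1 went from 44.4, 47.5 and 41.0 CPM to 64.2, 70.0 and 71.8 CPM (0.63 ± 0.06, adjusted p = 6.69e-15). In both genes every DP library was above every DN library. Tapbp counts per Tap1 count rose from 0.267 ± 0.00994 in DN to 0.649 ± 0.0255 in DP, a ratio 2.44 times higher. Exons of other genes on the opposite strand cover 24.9% of the Tapbp and 11.5% of the Erap1 exon bases, with the same doubt about strand as for H2-Q4. Exons of Zbtb22 on the same strand cover a further 4.11% of the Tapbp exon bases. The gene opposite Erap1 is Cast, the calpain inhibitor gene, which fell from 99.1 ± 3.13 to 42.5 ± 0.515 CPM, and the one opposite Tapbp is Gm19412, at 1.28 ± 0.329 and 0.935 ± 0.116 CPM.

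**Figure D3:**
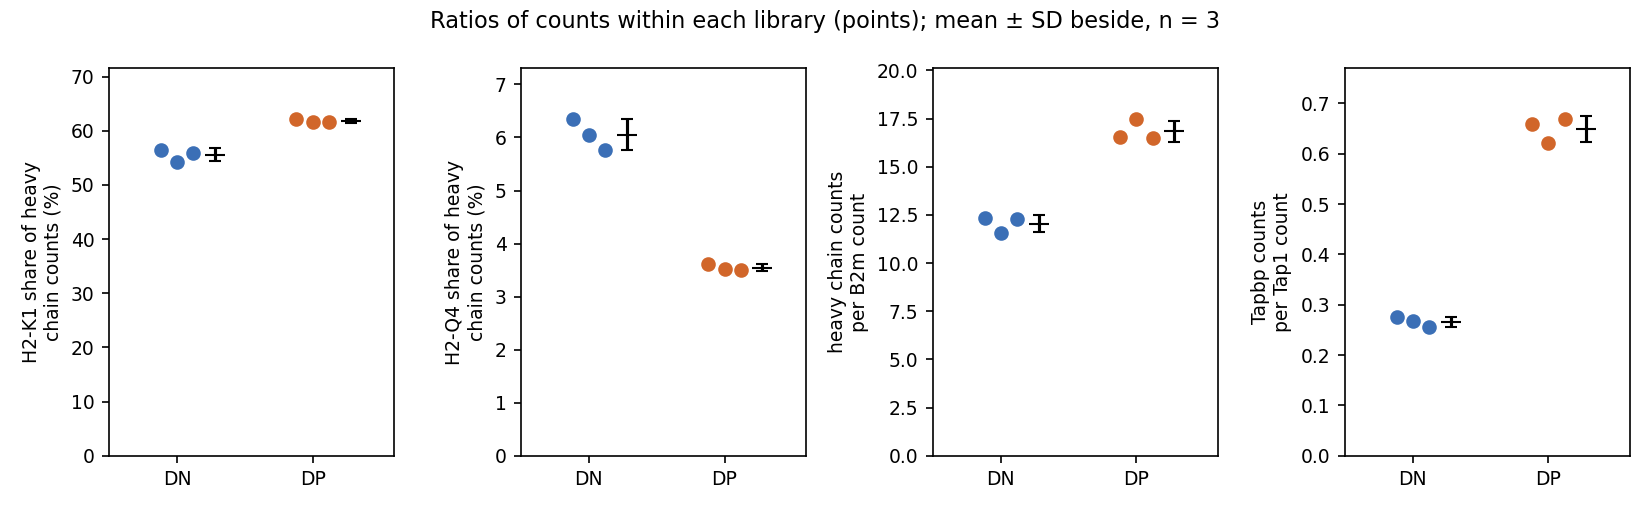
Ratios of deposited counts within each library, which do not depend on scaling between libraries; vertical axes start at 0, points are libraries and bars give mean ± SD (n = 3). DP libraries are above all DN libraries for the H2-K1 share, the heavy chain counts per B2m count and the Tapbp counts per Tap1 count, and below them for the H2-Q4 share.

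Nlrc5, the transactivator gene, fell slightly. It was measured at 78.4, 77.5 and 82.2 CPM in DN and at 64.4, 69.0 and 68.6 CPM in DP, with no overlap (-0.24 ± 0.05, edgeR adjusted p = 3.38e-05). H2-K1 counts per Nlrc5 count were 12.0 ± 0.624 in DN and 16.9 ± 0.840 in DP. Of the other members, B2m had the profile over the 6 libraries closest to that of Nlrc5, with a mean distance of 0.08 on the log2 scale after centring each gene. B2m ranked only 756 among all tested genes by this distance. The nearest genes were Ripk3, Tpst1, Clock, Vdac3 and Ociad1, at distances of 0.01 to 0.02. Their log2 changes ran from -0.24 to -0.20, close to that of Nlrc5. With libraries this alike within a group, the distance mostly follows the change between DP and DN. It is not a result separate from the log2 changes, and a link between Nlrc5 and B2m was not tested.

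Per length of the longest coding transcript, the order of levels was nearly the same in both subsets. H2-K1 led with 587 ± 37.5 CPM per kilobase in DN and 700.4 ± 19.9 in DP, above 99.2% of 10070 ranked genes in each. H2-D1 followed at 266 ± 4.13 and 257 ± 7.07, and B2m came next at 165 ± 1.59 and 127 ± 1.83. H2-T23 (65.3 and 63.8), H2-Q4 (57.7 and 36.3) and Tap1 (53.9 and 34.6) were in the middle, and the libraries of H2-Q4 and Tap1 overlapped in DP. Tap2 was above Tapbp in DN (29.6 against 14.6), whereas in DP their libraries overlapped (21.9 and 22.9). Erap1 and Nlrc5 were lowest and changed places, at 7.84 ± 0.576 and 10.5 ± 0.332 in DN and at 12.2 ± 0.703 and 8.88 ± 0.335 in DP.

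**Figure D4:**
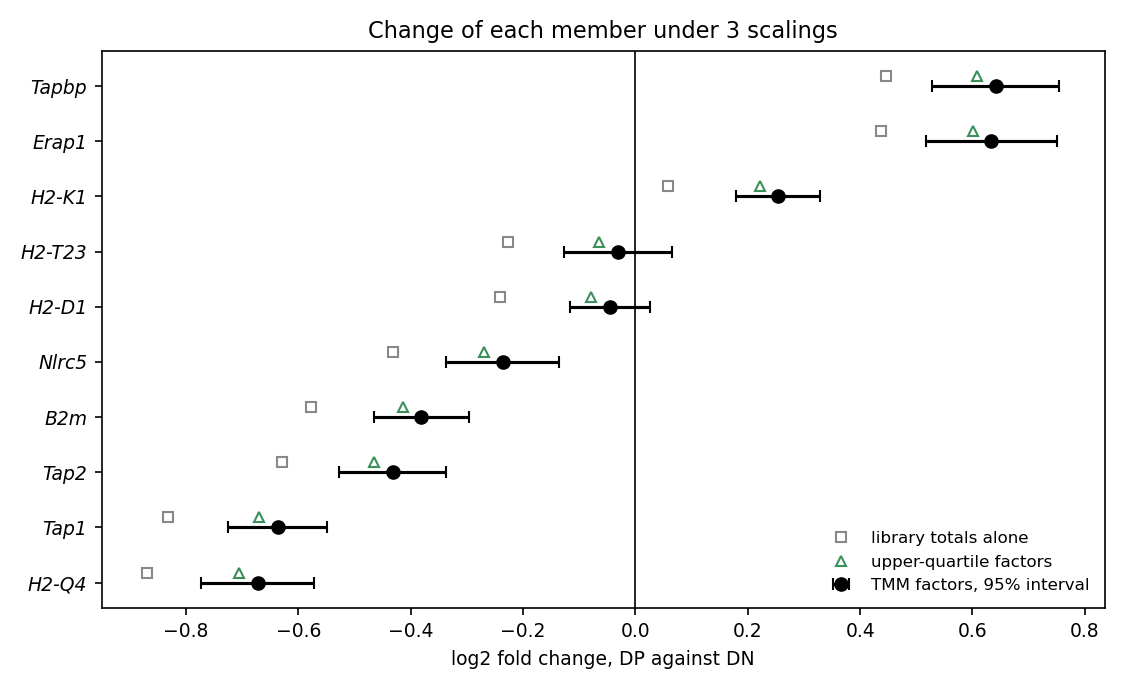
Log2 fold change of DP against DN for the 10 genes; filled points with 95% intervals use TMM factors, open squares library totals alone and open triangles upper-quartile factors. Tapbp and Erap1 stay above 0 and H2-Q4, Tap1, Tap2, B2m and Nlrc5 below 0 under all 3 scalings, while the call of H2-K1, H2-D1 and H2-T23 depends on the scaling.

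Other genes of the pathway were examined as lists by role, none of which was tested as a set. Over all tested genes 38.3% were called higher and 37.6% lower, and the counts in each list are to be read beside these shares. Among chaperones of the loading complex and of glycan quality control, 8 of 12 rose, 1 fell and 3 did not pass, with a median log2 change of 0.45 (0.26 with library totals alone, where 7 rose and 3 fell). Calr, calreticulin, which holds glycosylated heavy chains in the loading complex, rose from 1158 ± 63.1 to 2681 CPM (1.21 ± 0.04). Canx, calnexin, the chaperone of newly made chains, rose by 1.16 ± 0.04. Pdia3, the disulphide isomerase that pairs with tapasin, rose by 1.05 ± 0.04, and Mogs, a glucosidase, by 2.46 ± 0.08. Tapbpl, a tapasin-related peptide editor, stood at 13.1 and 12.5 CPM (-0.07 ± 0.11, edgeR adjusted p = 0.569), and with library totals alone it was called lower (-0.26, adjusted p = 0.0231). Calr counts per Tap1 count were 7.27 ± 0.389 in DN and 26.3 ± 2.00 in DP.

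The immunoproteasome, whose subunits favour peptides for class I, and the constitutive proteasome were listed separately. Of 5 immunoproteasome and activator genes, 1 rose, 1 fell and 3 did not pass, with a median of 0.01, and with library totals alone 1 rose and 4 fell. Psmb9 fell, as given above, Psme2, an activator subunit, rose by 0.50 ± 0.04, and Psmb8 (357 and 366 CPM, 0.04 ± 0.04), Psmb10 (39.0 and 36.5 CPM, -0.09 ± 0.07) and Psme1 (872 and 875 CPM) did not pass. Of the constitutive catalytic subunits and other activators, 4 of 5 rose and none fell, with a median of 0.68, and with library totals alone 4 rose and 1 fell. Psmb5 rose by 1.10 ± 0.14, Psmb6 by 0.68 ± 0.06, Psmb7 by 0.51 ± 0.04 and the activator gene Psme3 by 1.40 ± 0.05. Psmb8 counts per count of Psmb5, the constitutive subunit it replaces, were 65.6 to 79.4 in DN and 33.4 to 36.3 in DP. This ratio rests on 48 to 55 counts of Psmb5 in each DN library. Psmb9 counts per count of its counterpart Psmb6 were 1.75 to 2.14 in DN and 0.892 to 0.913 in DP. Psmb10 counts per count of its counterpart Psmb7 moved less, from 0.314 to 0.425 in DN to 0.231 to 0.246 in DP. Of 9 tested peptidases that trim or destroy peptides, 6 rose and 2 fell, with a median of 0.50 (5 rose and 3 fell with library totals alone, with a median of 0.31). Among those that rose were Thop1, which degrades cytosolic peptides, at 15.2 ± 0.632 and 108 CPM (2.82 ± 0.07) and Lap3, leucine aminopeptidase, at 19.4 ± 1.20 and 90.1 CPM (2.22 ± 0.06). Nln, the thimet-related neurolysin, rose by 1.38 ± 0.06, and Ide, insulin-degrading enzyme, by 1.37 ± 0.12.

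Transcription regulators of class I genes went both ways. Of 22 genes, 12 fell and 8 rose, with a median of -0.15, where 37.6% of all tested genes fell and 38.3% rose. With library totals alone 14 fell and 4 rose, with a median of -0.35, and with no filter the median was -0.08. Irf7 fell from 112 ± 3.10 to 39.2 CPM (-1.52 ± 0.05), Stat2 by 1.18 ± 0.06, Irf9 by 0.78 ± 0.05, Irf2 by 0.77 ± 0.04 and Irf1 by 0.60 ± 0.07. Irf8, a B cell and myeloid member of that family, rose by 0.13 ± 0.04, but with library totals alone it stood at -0.06 and was not called (edgeR adjusted p = 0.0861). Of the RFX subunits, which bind the same promoter module as NLRC5, Rfx5 fell by 0.23 ± 0.05 and Rfxank by 0.56 ± 0.11, while Rfxap rose by 0.26 ± 0.06. The rise of Rfxap was 0.07 with library totals alone and was then not called (edgeR adjusted p = 0.348). Ciita, the class II counterpart of Nlrc5, fell by 0.21 ± 0.04. Of the NF-kB subunit genes, Nfkb1 rose by 0.58 ± 0.05 and Rela fell by 0.15 ± 0.06. Ezh2, a repressive histone methyltransferase, rose by 0.46 ± 0.04.

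Of 25 other class I and class I-like genes looked up by symbol, 22 were listed in the deposited counts and 9 were tested. Of these 9, 5 fell, 3 rose and 1 did not pass, with a median of -0.23. Among all tested genes 37.6% fell and 38.3% rose. Library totals alone gave -0.42 (6 fell and 2 rose), leaving out the filter gave -0.45, and leaving out DN replicate 1 gave -0.09. H2-T24 fell furthest, from 84.2 ± 2.43 to 33.5 CPM (-1.33 ± 0.06), and H2-T22, also of the T region, fell by 0.29 ± 0.05. In the Q region H2-Q7 rose from 41.8 ± 1.72 to 54.8 CPM (0.39 ± 0.06), opposite to H2-Q4. H2-Q6, which shares words with H2-Q4, stood at 268 ± 12.0 and 297 CPM (0.15 ± 0.04), and with library totals alone it was not called (-0.05, edgeR adjusted p = 0.257). H2-M5 rose from 4 counts summed over DN libraries to 59 summed over DP libraries. Counts of 5 further genes, H2-T3, H2-M1, H2-M9, H2-M11 and H2-Bl, were 0 in all 6 libraries, below a floor of at most 0.315 CPM.

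**Figure D5:**
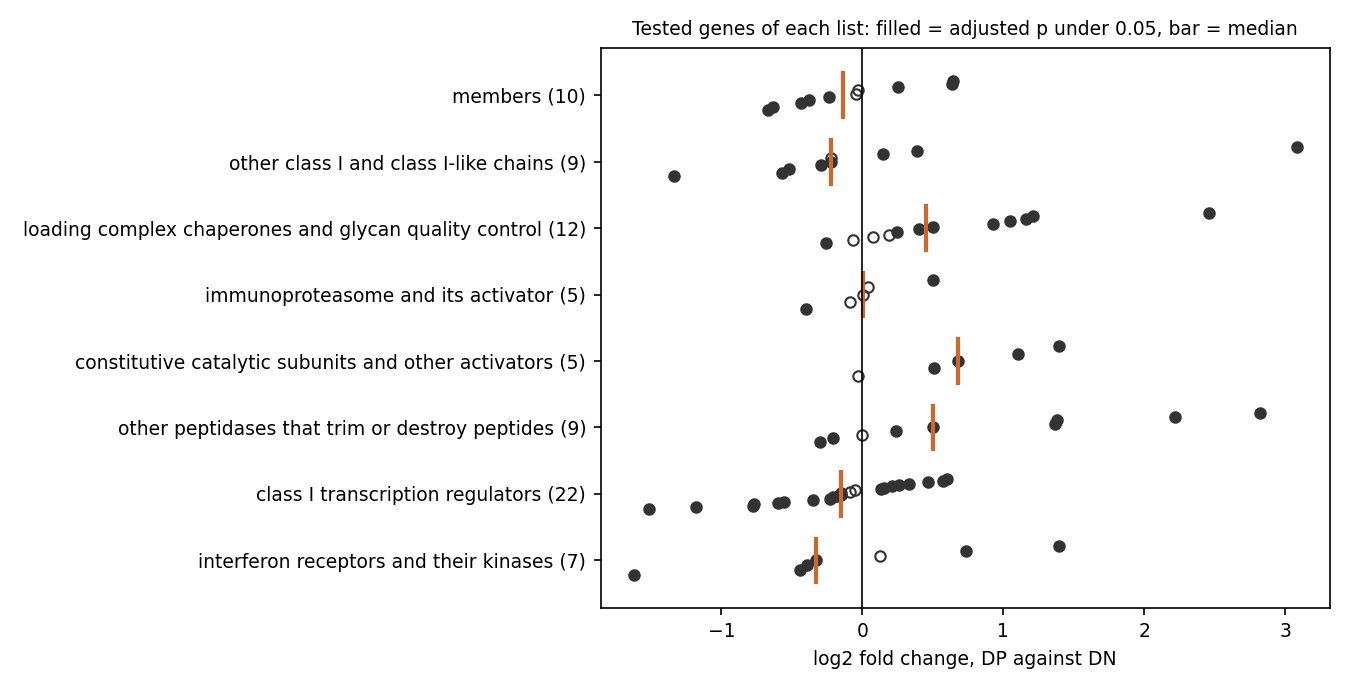
Log2 fold change of DP against DN for every tested gene of each list, with the number of tested genes in parentheses; filled points passed an adjusted p under 0.05, open points did not, and the bar marks the median. Loading chaperones and constitutive proteasome subunits lie mostly above 0, immunoproteasome genes around 0, and members on both sides.

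In the mm10 build, the heavy chain, transporter and tapasin genes lie in the MHC on chromosome 17. There Tapbp spans 33915899 to 33929292, H2-K1 33996017 to 34000347, Tap1 34187553 to 34197225, Tap2 34203527 to 34216321, H2-D1 35262730 to 35267499, H2-Q4 35379617 to 35385290 and H2-T23 36029773 to 36032855. B2m lies on chromosome 2 from 122147686 to 122153083, Erap1 on chromosome 13 from 74639568 to 74693201 and Nlrc5 on chromosome 8 from 94434356 to 94527272. Each of these genes has a protein-coding annotation, and the deposited value is 1 count per gene.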

How the data were processed

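The authors deposited raw counts for each gene, in 1 table per library with 55401 genes and 5 summary rows. HTSeq 0.13.5, STAR 2.7.10a, Trim Galore 0.6.6 and the mm10 build are named in the submitters' processing notes, without roles. No source used here gives the annotation release, the strand setting or any handling of molecular identifiers. Without strand, reads of opposite genes would be merged or dropped. Summary rows held 12.6% of counts in DN and 9.56% in DP on average (3.73% and 3.39% not uniquely aligned, which bears on the heavy chain genes) and were left out.

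Libraries were grouped by title. DP was compared with DN by edgeR 4.0.16 in R 4.3.3 (quasi-likelihood F test, TMM factors, filterByExpr with a minimum count of 10, robust, no block, Benjamini-Hochberg over 11296 genes), with DESeq2 1.42.0 and limma 3.58.1 as alternatives. CPM use TMM-scaled library sizes, ± is SD for levels and standard error for log2 changes. Floors cover counting error only. Every pair of libraries within a group differed by more than counting noise (1.96 to 3.26 chi-square per degree of freedom), so none was counted as a duplicate. Lengths, positions and shared words came from GENCODE M21, to which 55141 identifiers matched. Members, lists and tests were chosen with earlier results of these data known. The naming rule took every member, up to 4 genes with the smallest p of each list, a fixed set of proteasome, chaperone and regulator genes, the nearest tested neighbours and the 5 profiles nearest Nlrc5; some genes under this rule are not reported here. Named after their values were seen were Gm19412, H2-Q6, H2-T3, H2-M1, H2-M9, H2-M11, H2-Bl, Psme1, Gm11131, Gm15821, Gm20496, Nfkb1, Rela, Ezh2, Tyk2, Ifngr1, Xcr1, Ly6g and Klrb1c.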

Additional observations from a re-analysis of the deposited data

How the results depend on the processing

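Of 160 log2 values of members under alternatives in scaling, filter, test, weights, genes and libraries, 151 kept their direction and their side of the threshold. B2m, Erap1, H2-Q4, Nlrc5, Tap1, Tap2 and Tapbp kept direction and call in each of these refits, with the largest adjusted p at 0.00498 (Nlrc5, no filter). H2-K1 ranged from 0.06 to 0.33 and lost its call with library totals alone. H2-D1 turned to 0.029 with no filter (adjusted p = 0.544). H2-T23 turned to 0.043 with no filter and ranged from -0.055 to 0.026 with each library left out, turning above 0 without DN replicate 3 (0.026) and without DP replicate 3 (0.008), all without a call. The cause was not tested. Testing for more than 1.5-fold left 1 member, 0 higher and 1 lower. At an adjusted p of 0.01, 8 were called. The replicate number as a block changed no call (8 members, 3 higher and 5 lower; B2m -0.38). Same-numbered libraries did not deviate together (r of 0.06, -0.01 and -0.02), so the numbers were not used as pairs; which libraries share a mouse is not known. All within-library shares kept their direction with each library left out and within same-numbered pairs. Among them, the members' share of all counts rests on library totals. In the same-numbered pairs the H2-K1 share rose by 6.22 percentage points (exact sign-flip p = 0.25, the smallest possible). With H2-K1 and H2-D1 alone in the denominator it rose by 4.74 points. Depth limits no member here, but H2-M5 rests on 4 DN counts.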

Other observations

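Interferon receptors and their kinases, which act upstream of the class I genes, went both ways. Of 7 tested, 4 fell, 2 rose and 1 did not pass (edgeR), with a median log2 change of -0.33 (-0.52 with library totals alone). The shares over all tested genes were 37.6% lower and 38.3% higher. Jak2 fell from 148 ± 3.92 to 48.1 CPM (-1.62 ± 0.05), Jak1 by 0.39 ± 0.04, Tyk2 by 0.44 ± 0.08 and the interferon gamma receptor gene Ifngr1 by 0.33 ± 0.06. Its partner Ifngr2 rose from 7.86 ± 0.930 to 13.2 CPM (0.73 ± 0.12) and the type I receptor gene Ifnar2 from 2.78 ± 0.445 to 7.24 CPM (1.39 ± 0.17).

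The tested genes nearest to the members went both ways. Tapbp rose, and Daxx, 308 bases from it, fell by 0.27 ± 0.04. On its other side Zbtb22, which overlaps Tapbp on the same strand, rose by 0.24 ± 0.10 (edgeR adjusted p = 0.0188). Between the falling genes Tap1 and Tap2 lies Psmb8, at 0.04 ± 0.04, and beyond Tap2 the class II gene H2-Ob fell by 1.99 ± 0.04. H2-D1 lies 9022 bases from the RNA helicase gene Ddx39b, which rose by 0.73 ± 0.04.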
